A study of Mus musculus with 14 samples.

Results

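The miR-30 family was examined in extracellular vesicles (EVs) from mouse plasma, counted with the NanoString nCounter mouse miRNA panel. Every probe named mmu-miR-30a, mmu-miR-30b, mmu-miR-30c, mmu-miR-30d or mmu-miR-30e was taken, which gave 5 of the 626 probes in the table and 5 of its 566 mouse miRNA probes. The family was taken by name, whereas miR-30b was set against its 4 paralogues because its counts were already known to be higher after whole-body irradiation (WBIR). Its values against sham are therefore given as a description, with no p-value, and where it is counted among the probes called this is part of that description.

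The 14 samples comprised 4 labelled sham, 5 labelled 2 Grays of WBIR and 5 labelled 9 Grays of WBIR. According to the methods, all mice were female C57BL/6J animals of 6 to 8 weeks, and the radiation came from a cesium source. The irradiated miRNA samples were collected 3 days after exposure. No transgene or other agent is named for any group. According to the labels, debris and then larger EVs were spun out of the plasma before the EVs studied were pelleted, so the pellet was defined by sedimentation, not by a cell of origin. Whether a sample was 1 mouse or a pool is not given in the sources used here, and the tests below measure only the spread between these samples.

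The miR-30 miRNAs are a conserved family, and the 5 members counted here are made from 6 mouse genes. A mature miRNA guides Argonaute to messenger RNAs that pair with its seed, bases 2 to 8 from the 5′ end, and lowers their stability and translation. The family is abundant in heart, kidney and epithelia and is known for restraining fibrosis and autophagy. miR-30a is a known repressor of the autophagy gene Becn1, and miR-30c of connective tissue growth factor in heart muscle.

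The mature sequences are shown because the members share a seed and differ mainly in the bases after it, so a probe has to tell them apart by those bases. They are RefSeq sequences of GRCm38.p6, found by name for 3 of the 5 members, with the panel's older names without an arm read as the 5p arm. The panel's own probe sequences were not used here. miR-30b and miR-30d are named only. Capitals mark the seed, GUAAACA.
mmu-miR-30a-5p: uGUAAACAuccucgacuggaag
mmu-miR-30c-5p: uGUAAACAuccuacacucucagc
mmu-miR-30e-5p: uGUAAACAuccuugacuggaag
mmu-miR-384-5p: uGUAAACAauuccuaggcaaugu

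miR-30a-5p lies at chr1:23272274-23272295 on the plus strand and miR-30e-5p at chr4:120772660-120772681 on the minus strand. miR-30c-5p is made from 2 genes, at chr1:23291714-23291736 (plus) and chr4:120769584-120769606 (minus). miR-30a and miR-30e differed at 1 of 22 bases, C13U, counted from 1 at the 5′ end of miR-30a. miR-30c shared its first 12 bases with both and was identical to each at 17 of 22 bases. miR-384-5p, at chrX:105344332-105344354 (minus), is outside the family by name but has the same seed, and was identical to miR-30a at 12 of 22 bases. In the RefSeq gene table Mir30b and Mir30d are neighbours with 0 genes between them, as are Mir30a and Mir30c-2, while Mir30c-1 and Mir30e both lie within Nfyc, a gene for a subunit of the transcription factor NF-Y. The table also names Mir30f, which spans Mir30e and is not analysed here.

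miR-30b was the only one of the 5 probes whose counts in irradiated samples lay apart from those in sham. Its counts were 12, 18, 16 and 8 in sham replicates 1 to 4. They were 53, 47, 26, 41 and 39 in the 2 Gy replicates and 63, 55, 48, 50 and 59 in the 9 Gy replicates. The highest sham sample thus lay below the lowest irradiated sample, which was 2 Gy replicate 3. Sham averaged 13.5 ± 4.43 counts (SD over 4 samples), the 2 Gy group 41.2 ± 10.1 and the 9 Gy group 55.0 ± 6.20 (SD over 5 samples each). Of all 599 miRNA probes, 3.01% lay wholly above sham at 2 Gy and 5.18% at 9 Gy, while 1.00% and 0.501% lay wholly below it. Among the 5 miR-30 probes miR-30b alone did so, above sham at both doses. The number of EVs in a pellet and the amount of a miRNA per EV cannot be told apart from such counts.

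**Figure D1:**
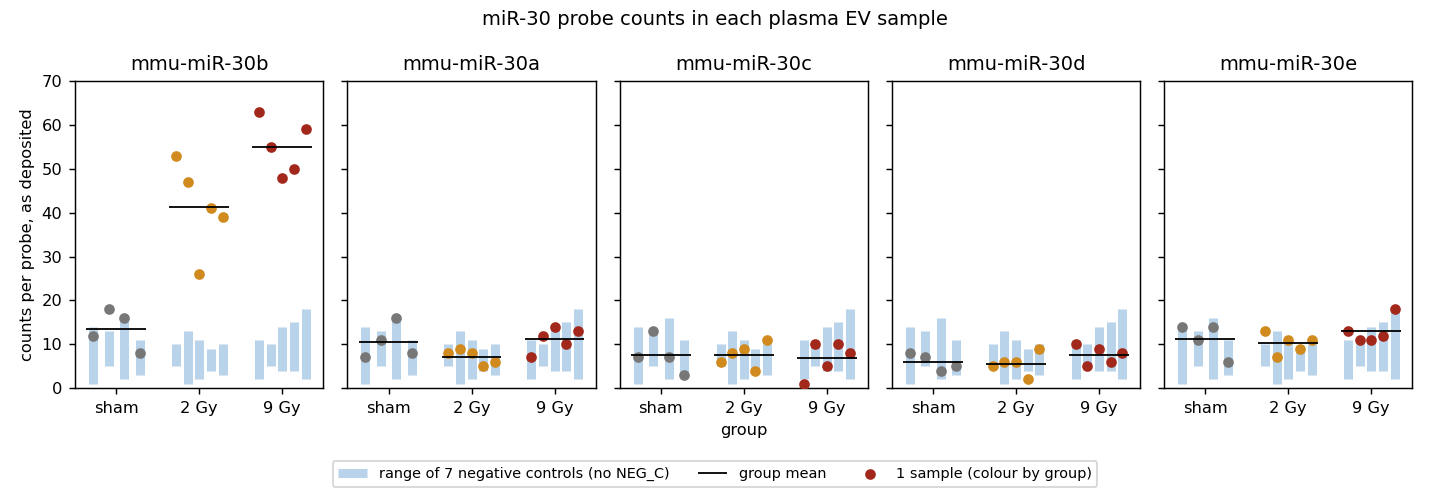
Counts as deposited (vertical axis) of the 5 miR-30 probes in each sham, 2 Gy and 9 Gy sample (points), with the group mean (line) and the range of the 7 negative control probes other than NEG_C in the same sample (blue bar). miR-30b lies between 26 and 63 counts in the irradiated samples and between 8 and 18 in sham, while the paralogues lie between 1 and 18 counts throughout.

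Counts were scaled with TMM (trimmed mean of M values) factors, which set the bulk of the 599 miRNA probes level between samples. Scaled counts of miR-30b averaged 13.5 ± 3.63 in sham (SD, n = 4). The 2 Gy samples averaged 46.0 ± 11.8 and the 9 Gy samples 49.1 ± 9.58 (SD, n = 5 each). The ratio of means over sham was 3.40 at 2 Gy and 3.63 at 9 Gy. The fitted log2 fold change by edgeR was 1.75 ± 0.24 at 2 Gy and 1.84 ± 0.24 at 9 Gy (SE), beside a median of 0.05 and 0.01 over the 176 probes tested. By size of fold change miR-30b ranked 11th among the 23 probes that were called higher at 2 Gy (13.1% of those tested), and 13th among the 28 at 9 Gy (15.9%). Of the 2 miR-30 probes that were tested, 1 was called at each dose, both times miR-30b, where 14.8% of all tested probes were called at 2 Gy and 17.0% at 9 Gy (adjusted p under 0.05). Since miR-30b was singled out on these contrasts, nothing is read from that count.

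The 4 paralogues stayed near the counts of the negative control probes, which have no target in the sample. mmu-miR-30e had the highest mean of them. Its counts were 14, 11, 14 and 6 in sham, 13, 7, 11, 9 and 11 at 2 Gy, and 13, 11, 11, 12 and 18 at 9 Gy. The 3 groups overlapped. By edgeR its log2 fold change was -0.0015 ± 0.29 at 2 Gy (SE, adjusted p 0.996) and 0.01 ± 0.27 at 9 Gy (SE, adjusted p 0.982). The 95% intervals of these changes ran from 0.670-fold to 1.49-fold and from 0.690-fold to 1.48-fold. A change of that size or less in either direction was not detectable at this depth with this scaling. These limits hold for counts that include background, so larger changes of the miRNA itself could also have been missed. With the median negative control subtracted and TMM scaling, the log2 fold changes were -0.21 ± 0.60 and 0.43 ± 0.55 (SE, 2 Gy then 9 Gy). Scaled to the total count miR-30e was called lower at both doses, with -0.71 ± 0.32 and -1.02 ± 0.31 (SE, adjusted p by edgeR 0.045 and 0.0019), while the median of all tested probes was at -0.66 and -1.02. Scaled to the ligation controls it was called lower as well, with -3.001 ± 0.45 and -2.86 ± 0.44 (SE) beside medians of -3.01 and -2.92. Whether the changes of miR-30b and miR-30e differed from each other was not tested, because miR-30b was chosen for its change.

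mmu-miR-30a, the partner of miR-30e in sequence, had 7, 11, 16 and 8 counts in sham, 8, 9, 8, 5 and 6 at 2 Gy, and 7, 12, 14, 10 and 13 at 9 Gy. The groups overlapped, with the lowest mean, 7.2 ± 1.64 (SD, n = 5), at 2 Gy. mmu-miR-30c had 3 to 13 counts in the sham samples, 4 to 11 in the 2 Gy samples and 1 to 10 in the 9 Gy samples. For mmu-miR-30d, the gene neighbour of miR-30b, these were 4 to 8, 2 to 9 and 5 to 10 counts. Both overlapped between all groups.

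These 3 probes fell under the minimum of a mean of 10 counts over the 14 samples and were not tested. miR-30a missed it narrowly with a mean of 9.57, and miR-30e passed with 11.5. In the alternative fit over all 599 probes, their log2 fold changes against sham were -0.40 ± 0.33 and -0.10 ± 0.30 for miR-30a, 0.16 ± 0.37 and -0.33 ± 0.38 for miR-30c, and 0.04 ± 0.40 and 0.14 ± 0.37 for miR-30d (SE, 2 Gy then 9 Gy). None passed, the smallest adjusted p by edgeR being 0.818. In order of mean count over the 14 samples the family ran miR-30b, miR-30e, miR-30a, miR-30c and miR-30d, and apart from miR-30b in irradiated samples neighbours in this order overlapped. Counts of different probes also depend on the probe, so the order is of counts and not of molecules.

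Background was set beside each member. The median of the 8 negative controls averaged 8.0 ± 1.22 counts over the sham samples (SD, n = 4), and 7.6 ± 0.652 and 7.4 ± 1.64 over those given 2 and 9 Gy (SD, n = 5 each). NEG_C stood apart from the other 7 negative controls, with 27 to 60 counts in sham, 30 to 59 at 2 Gy and 52 to 76 at 9 Gy. miR-30b reached 0.916 ± 0.426 of the NEG_C count at 2 Gy and 0.922 ± 0.154 at 9 Gy (SD, n = 5 each), so that 1 control without a target counted about as high as miR-30b did after irradiation. NEG_C itself stood at 1.04 times its sham level at 2 Gy and 1.31 times at 9 Gy (geometric means, two-sided exact permutation p 0.889 and 0.190).

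How many samples counted as above background depended on NEG_C. Against the highest of the other 7 negative controls of the same sample, miR-30b was higher in 5 of 5 samples at 2 Gy, in 5 of 5 at 9 Gy and in 1 of 4 in sham. Against the mean plus 2 SD of all 8 it was higher in 3, 3 and 0 samples. By the first limit miR-30e was above background in 4 of the 14 samples, miR-30a and miR-30c in 1 each and miR-30d in 0. miR-384-5p, with the same seed and 3 to 9 counts, was above it in 0 of the 14. In sham, miR-30b was thus mostly within the range of probes without a target, and its fold change over sham includes those background counts.

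The position of a probe among the 599 miRNA probes of its own sample needs no scaling between samples. miR-30b had rank 143, 43, 43 and 150 in sham, where rank 1 is the highest count. Its ranks were 9, 10, 20, 11 and 13 at 2 Gy and 9, 9, 8, 9 and 11 at 9 Gy. No paralogue came above rank 43, which miR-30a held in sham replicate 3, tied with miR-30b. The best rank of a paralogue in an irradiated sample was 85, for miR-30e in 9 Gy replicate 5.

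**Figure D2:**
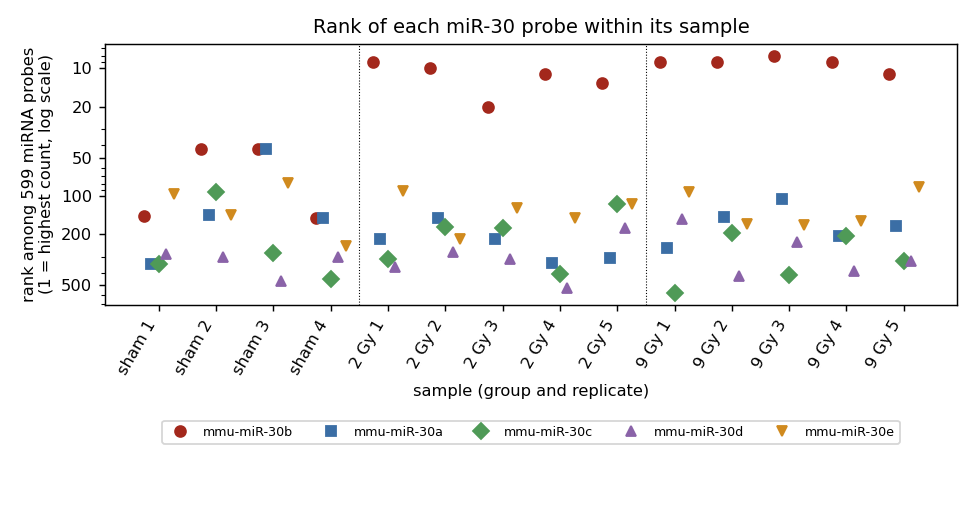
Rank of each miR-30 probe among the 599 miRNA probes of the same sample (vertical axis, log scale, 1 is the highest count) for the 14 samples, named by group and replicate. miR-30b lies between ranks 8 and 20 in the 10 irradiated samples and between 43 and 150 in sham.

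Set against its paralogues in the same sample, miR-30b was 1.52 ± 0.162 times their mean count in sham (SD, n = 4). It was 5.67 ± 2.04 times this mean after 2 Gy and 5.83 ± 1.33 times after 9 Gy (SD, n = 5 each). Sham ran from 1.33 to 1.71 and the irradiated samples from 3.06 to 8.20. The paralogues stayed near the negative controls, so these ratios set miR-30b against counts near background and do not measure it against the paralogue miRNAs. As a share of all miRNA counts, miR-30b took 0.221% ± 0.0596 in sham (SD, n = 4). Its share was 0.452% ± 0.0838 after 2 Gy and 0.400% ± 0.0877 after 9 Gy (SD, n = 5 each). miR-376a and miR-136 took a large part of the counts after irradiation. Without them the shares of miR-30b were 0.223% ± 0.0600, 0.739% ± 0.185 and 0.798% ± 0.146 (SD). Total counts over the miRNA probes were 4781 to 6926 in sham, 8019 to 10455 at 2 Gy and 11518 to 20150 at 9 Gy.

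The ligation positive controls, synthetic templates that are joined to a tag like the miRNAs, moved with the groups as well. Their geometric mean was 136 to 634 counts in sham, 1935 to 3121 at 2 Gy and 2231 to 3463 at 9 Gy. Over sham this was a rise of 7.88-fold for 2 Gy and 8.98-fold for 9 Gy (two-sided exact permutation p 0.0159 in both cases, the smallest this design allows). Hybridisation positive controls, which skip ligation, had ratios of 0.926 and 0.989 (exact permutation test, two-sided p 0.317 and 0.825). Since the 2 ranges did not meet, the ligation of tags and the sham group cannot be told apart.

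miR-30b was set directly against these controls. As deposited, its geometric mean exceeded that of sham 3.11-fold after 2 Gy and 4.24-fold after 9 Gy, less than for the ligation controls, at 0.394 and 0.472 of their rise. Once the median negative control of each sample was taken off, these became 7.21-fold and 10.6-fold. Divided by the rise of the ligation controls, this left 0.914-fold at 2 Gy and 1.18-fold at 9 Gy. Since only 1.5 to 10 counts remained in sham after subtraction, and miR-30b was above the other negative controls in 1 of 4 sham samples, these folds rest on a sham level near background and do not show that miR-30b and the ligation controls rose alike. Per 1000 ligation control counts and after subtraction, miR-30b gave 6.31, 48.2, 16.2 and 11 counts in sham, 14.4, 16.3, 8.76, 15.6 and 16.5 at 2 Gy, and 19.6, 21.5, 16, 18.2 and 15.6 at 9 Gy. On this scale all 3 groups overlapped, and sham spread the widest, as it did before subtraction, with 18.9 to 86.7 against at most 24.7 in the irradiated samples.

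**Figure D3:**
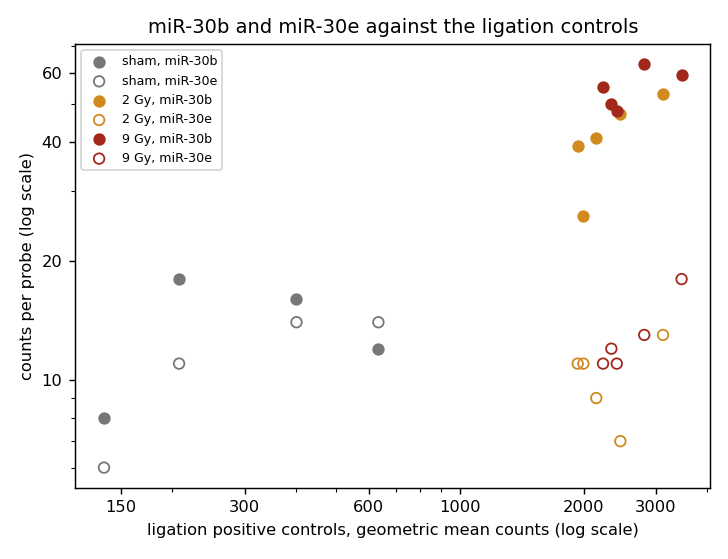
Counts of miR-30b (filled points) and miR-30e (open points) against the geometric mean of the ligation positive controls (both axes in counts, log scale), 1 point per sample and probe, coloured by group. The sham samples lie at 136 to 634 ligation counts and the irradiated samples at 1935 to 3463, and only miR-30b differs in level between these ranges.

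Sham samples were left out of the relation to the ligation controls, which was computed over the 10 irradiated samples and depended on the scale. With dose means removed, log2 scaled counts of miR-30b followed the ligation controls with a Pearson r of 0.500 (permutation p 0.145, adjusted 0.145 over the 2 miR-30 probes tested) and a Spearman rho of 0.503 (permutation p 0.143, adjusted 0.179). The Pearson r was 0.674 within 2 Gy and 0.218 within 9 Gy. Without 2 Gy replicate 1 and 9 Gy replicate 5 it was 0.770. These were the pair farthest from the median ligation level once dose means were removed. With both measures scaled to the hybridisation controls, r was 0.815 (permutation p 0.00062, adjusted 0.00124), rho was 0.879 (permutation p 0.00165, adjusted 0.0033), and r was 0.878 without that pair. On that scale 2 Gy replicate 2 and 9 Gy replicate 5 were the farthest from the median, and r was 0.834 without them. Within 2 Gy alone that r was 0.884 and within 9 Gy alone 0.774. Dividing both measures by the same controls can add to such an r, and how much it did here was not tested. For counts as deposited r was 0.681 (permutation p 0.0263, adjusted 0.0527) and rho 0.758 (permutation p 0.0148, adjusted 0.0297), with r 0.628 without that pair.

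miR-30e had a Pearson r of 0.544 on scaled counts (permutation p 0.108, adjusted 0.145) and a rho of 0.467 (permutation p 0.179, adjusted 0.179). The r was 0.192 within 2 Gy and 0.914 within 9 Gy. Leaving out the same pair of samples brought r to -0.019, so the relation rested on them. For counts as deposited its r was 0.526 (permutation p 0.119, adjusted 0.119) and fell to -0.477 without the pair. Scaled to the hybridisation controls it was 0.530 (permutation p 0.123, adjusted 0.123), 0.163 without that pair, and 0.689 without 2 Gy replicate 2 and 9 Gy replicate 5.

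The difference of miR-30b from sham depended on which measure was taken as constant. It was 1.73 ± 0.27 at 2 Gy and 2.04 ± 0.27 at 9 Gy (log2, SE) when scaled to the hybridisation controls, and 1.02 ± 0.26 and 0.83 ± 0.25 when scaled to the total count. With the median negative control subtracted and TMM scaling it was 2.75 ± 0.45 and 2.92 ± 0.45. Scaled to the ligation controls the sign turned, with -1.40 ± 0.40 and -1.15 ± 0.40, because that scaling moved the median of all tested probes to -3.01 and -2.92. After background subtraction and ligation scaling the values were -0.41 ± 0.56 and -0.07 ± 0.56 (log2, SE). Relative to the median probe under the same setting, miR-30b was higher by 1.33 to 2.70 at 2 Gy and by 1.34 to 2.58 at 9 Gy (log2) over 30 settings, which are all that were run except the one that kept only 17 probes. With a mean of at least 30 counts, which kept those 17, these differences were 0.17 and 1.48. With the ligation controls as a covariate the log2 fold changes were 1.42 ± 0.67 and 1.49 ± 0.70 (SE), and miR-30b was not among the probes called.

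**Figure D4:**
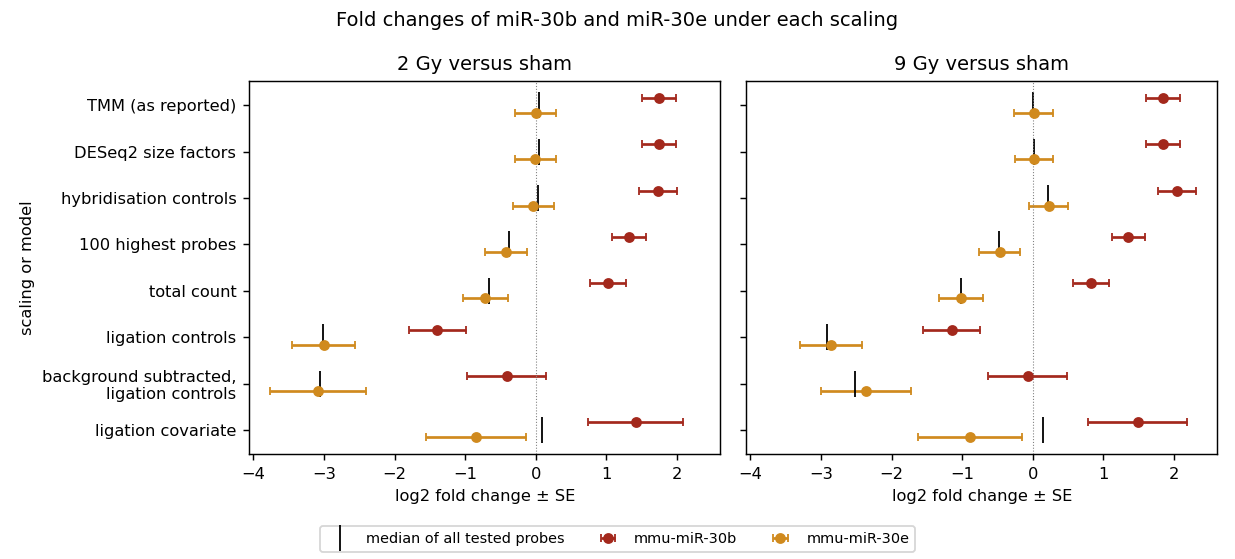
Log2 fold change against sham (horizontal axis, points with SE bars) of miR-30b and miR-30e at 2 Gy (left) and 9 Gy (right) under 8 scalings or models, with the median of all tested probes as a black tick. miR-30b lies to the right of the median in each, and to the left of 0 with ligation scaling (-1.40 and -1.15), while miR-30e lies close to the median except with the ligation covariate.

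The doses were then compared with each other, a contrast in which the ligation controls had a ratio of 1.14 (exact permutation test, two-sided p 0.294). Of the 5 miR-30 probes 0 lay apart between doses, where 2.34% of the 599 miRNA probes lay wholly higher at 9 Gy. By edgeR 0 of the 2 tested miR-30 probes passed, as 0 did at an unadjusted p under 0.05 and 0 by DESeq2. Of all 176 probes 0% were called by edgeR, with 20 at an unadjusted p under 0.05 and 1 called by DESeq2. The log2 difference of miR-30b was 0.09 ± 0.20 (9 Gy minus 2 Gy, SE, adjusted p 0.972), with a 95% interval from 0.810-fold to 1.40-fold. Its sign turned with scaling to the total count (-0.19), with the stricter background subtraction (-0.48), and without 2 Gy replicate 3 (-0.032) or 9 Gy replicate 1 (-0.033). Scaled to the hybridisation controls the difference was 0.32 ± 0.22 (SE), beside a median of 0.27 over the tested probes. Scaled to the ligation controls it was 0.25 ± 0.33 beside 0.17, and with the median negative control subtracted as well 0.34 ± 0.45 beside 0.58. For miR-30e the log2 difference by edgeR with TMM scaling was 0.02 ± 0.26 (SE, adjusted p 0.972), with an interval from 0.701-fold to 1.46-fold. The ratio of miR-30b to its paralogues, whose counts were near background, was 1.07 times as high at 9 Gy as at 2 Gy (exact permutation test, two-sided p 0.762). Per 1000 ligation counts, without background subtraction, miR-30b was 1.20 times as high (exact permutation test, two-sided p 0.119).

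The tested probes whose scaled counts most resembled those of miR-30b over the 14 samples were, by Pearson r on log2 values, mmu-miR-297c (0.961), mmu-miR-539 (0.954), mmu-miR-377 (0.948), mmu-miR-136 (0.945) and mmu-miR-376a (0.942), among 175 other probes. These r describe 14 samples that share groups and ligation levels, and all 5 probes had low counts in sham. With group means removed, r fell to 0.644, 0.572, 0.525, 0.701 and 0.397 in the same order, where miR-136 ranked 1st of 175 and miR-376a 35th. miR-30e ranked 72nd over all samples, with an r of 0.134.

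A list of 14 miRNAs of blood cells, liver and muscle was set beside the family, since plasma pellets can carry material of these cells. In every sample 2 of the 14 were above the highest negative control other than NEG_C, namely the red cell miRNA miR-451 and miR-142-5p of blood cells. Above it in no sample were 3, namely the liver miRNA miR-122, the muscle miRNA miR-133a and miR-142-3p, the other arm of miR-142. Summed counts of the 4 red cell probes were 43 to 99 in sham, 45 to 350 at 2 Gy and 49 to 219 at 9 Gy. Of these, miR-16 had 9 to 19, 16 to 66 and 22 to 51 counts (means 14.25, 45 and 36.4), and its 9 Gy samples lay above sham, as for 5.18% of all miRNA probes. miR-144 averaged 5.25, 6.0 and 5.6 counts, and miR-486 10.5, 13.2 and 12.4. miR-451 averaged 49.25, 130.2 and 70 counts, with overlapping groups. For the 4 platelet and myeloid probes the sums were 862 to 1051, 506 to 657 and 549 to 785, nearly all from miR-142-5p, with means of 951, 565 and 646 counts. Among these platelet and myeloid probes miR-223 averaged 8.75, 12.8 and 13.4 counts, miR-142-3p 7, 5.8 and 7.6, and miR-126-3p 3.5, 5.8 and 5.2. The 2 lymphocyte probes summed to 8 to 15, 10 to 14 and 10 to 317 counts, where the highest sums came from miR-155, which was above that limit in 2 of the 14 samples, and miR-150 averaged 11, 10.8 and 11.8. The 3 muscle probes summed to 19 to 33, 22 to 32 and 23 to 33. The liver miRNA had 2 to 4, 1 to 6 and 1 to 6 counts. The part of these miRNAs in the miR-30b counts was not tested.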

How the data were processed

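The authors counted barcodes per probe with the nCounter mouse miRNA panel v2, in which miRNAs are tagged by ligation and hybridised to reporter probes, with no sequencing. The deposited values are these counts, whole and without positive control scaling or background subtraction. The authors' own nSolver normalisation was not used. Of 626 probes, 599 were for miRNAs. TMM factors were computed over these 599, and the 176 with a mean of at least 10 counts over the 14 samples entered edgeR 4.0.16 (R 4.3.3; robust quasi-likelihood fit of all 3 groups together, two-sided), with Benjamini-Hochberg adjustment over the 176. SE came from the log2 fold change and its F statistic. The script was tested on simulated counts. Control probes and ratios between doses were compared with exact permutation tests on log2 values, and correlations used 100000 permutations (scipy 1.17.1). No 2 samples of a group looked like 1 library deposited again (chi-square over the 626 probes, 26 pairs, highest p 0.0202). Total miRNA counts of 4781 to 20150 per sample set the precision. Samples were grouped by their titles. DESeq2 1.42.0, other scalings, filters, background subtraction, a ligation covariate and each sample left out were tried. Figures were drawn with matplotlib 3.10.9.

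The members, lists and tests were chosen with earlier results of these data known. Named were all 5 miR-30 probes, a probe with the same seed, the control probes, a list of 14 blood, liver and muscle miRNAs, and the 5 tested probes with the highest r with miR-30b.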

Additional observations from a re-analysis of the deposited data

Results flagged for a closer look

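The count of mmu-miR-30e in 9 Gy replicate 5 was 18, against 11 to 13 in the other 9 Gy samples. Its gap to the nearest sample was 0.714 of the range of the group, past the 95% limit of Dixon's ratio for 5 samples. It was the only one of 27 groups of values checked that lay past this limit, where chance gives about 1 in 20. The same sample had the highest total miRNA count, 20150, and the highest ligation controls, 3463, and without it the log2 fold change of miR-30e at 9 Gy against sham was -0.076 in place of 0.01.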

How the results depend on the processing

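Leaving out 1 of the 14 samples at a time gave log2 fold changes of miR-30b against sham, which are a description, of 1.62 to 1.89 at 2 Gy and 1.71 to 1.98 at 9 Gy, and -0.033 to 0.18 between doses. miR-30e ranged from -0.099 to 0.12, -0.083 to 0.15 and -0.074 to 0.091. All tested probes called then numbered 20 to 26, 26 to 32 and 0 to 3, the last above 0 without 2 Gy replicate 1, 2 or 4 or 9 Gy replicate 2. Of 45 values of the untested members under other scalings 32 stayed within 1 SD.

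Total count scaling called 2 miR-30 probes at each dose (miR-30b higher, miR-30e lower) among 106 (12 higher) and 145 (15 higher) in all, in place of 26 (23 higher) and 30 (28 higher), and 7 (1 higher) between doses, with log2 -1.02 for miR-30e at 9 Gy, and -0.19 for miR-30b and -0.30 for miR-30e between doses. Scaling to the 100 highest probes called 49 (15 higher) and 75 (21 higher) in all, with -0.47 and -0.046 for miR-30e at 9 Gy and between doses. Ligation scaling called 2 miR-30 probes at each dose, both lower, among 169 and 167 (2 higher in each), with -1.40 and -1.15 for miR-30b and -2.86 for miR-30e at 9 Gy. With background subtracted first (chosen after seeing the data) the counts were 151 (4 higher), 146 (7 higher) and 2 between doses, miR-30e was called lower and miR-30b not called (-0.41 and -0.073), and miR-30e was -2.36 at 9 Gy. The ligation covariate called 0 miR-30 probes among 3 at each dose, with -0.89 and -0.043 for miR-30e at 9 Gy and between doses. It extrapolates across ligation levels that the groups do not share. Subtracting the negative control mean plus 2 SD called 0 miR-30 probes among 5 at each dose, with 2.65 ± 1.33 and 2.18 ± 1.36 for miR-30b against sham (SE). miR-30e was then 0.12, -0.17 and -0.30, and miR-30b -0.48 between doses. A mean of at least 30 counts left 17 probes, 9 and 11 of them called. Hybridisation control scaling called 12 probes between doses and raised the r of miR-30b with the ligation controls to 0.815. Between doses DESeq2 and an adjusted p under 0.1 each called 1, and median background subtraction 2. Total count without miR-376a and miR-136, chosen after seeing the data, gave -0.0086 for miR-30e at 9 Gy. The median of all tested probes moved to -0.66 and -1.02 with the total count, -0.37 and -0.48 with the 100 highest probes, and 0.03 and 0.22 with the hybridisation controls (2 Gy then 9 Gy against sham), the last with 0.27 between doses. The cause of these shifts was not tested.

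Replicate numbers did not pair the samples (r of same-numbered deviations -0.081 to 0.18). With the replicate block miR-30b was 1.77 at 2 Gy and 1.87 at 9 Gy, miR-30e was -0.017 at 9 Gy, and 3 probes were called between doses. Counts near the negative controls limit every paralogue.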
